A study of Mus musculus with 5 samples.

Results

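The genes described here are 9 coregulators and classic targets of estrogen receptor alpha, chosen by name from the expression table: Ncoa1, Ncoa2, Ncoa3, Nrip1, Cited2, Greb1, Susd3, Ctsd and Xbp1. All 9 were found among the 23857 genes of the table, and all 9 passed the filter on low values that 19292 genes passed (2 or more libraries with a TPM of 1 or higher; TPM is transcript abundance corrected for length and scaled to a fixed total per library). RNA was sequenced from YFP-positive stromal cells sorted out of the oviduct (fallopian tube) of 5 young adult female mice, 1 library per mouse. Mice 2 and 3 of the control group (n = 2) carried Pdgfra-Cre and the Rosa26-YFP (R26Y) reporter and are labelled wild-type. Mice 1, 2 and 3 of the other group (n = 3) carried Pdgfra-Cre, R26Y and Esr1(fl/fl), the floxed alleles of the receptor gene. Cre under the Pdgfra promoter acts in mesenchymal cells, so both groups share the recombinase and the reporter and differ in the floxed alleles.

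Estrogen receptor alpha is a transcription factor that, once bound by estradiol, sits on DNA at estrogen response elements and recruits coactivators or corepressors. The p160 coactivators bridge the receptor to histone acetyltransferases and methyltransferases, while corepressor complexes bring histone deacetylases. Some genes whose transcription rises with the hormone, such as Greb1 and Nrip1, encode proteins that bind the receptor in turn. In the oviduct, estrogen acts on both the epithelium and the underlying stroma.

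The promoters of 4 members known as estrogen targets, those with a match to the half-site described below, are shown here as the sequence context of the values that follow. They are RefSeq sequences (GRCm38.p6, the assembly of the mm10 build named in the submitters' processing notes), 250 bases long, ending just before an annotated transcript start, and written 5′ to 3′ on the gene's strand. Of the 9 members, 7 matched the promoter table, with 9 windows in all, since Greb1 and Nrip1 each had 2, of which the one farther upstream is shown. Ncoa2 and Ncoa3 were not among them. Capitals mark the half-site of the estrogen response element, GGTCA, or its reverse complement TGACC. The Greb1 window is chr12:16800887-16801136 (minus strand), with a half-site that begins 88 bases upstream of the start. The Nrip1 window is chr16:76373828-76374077 (minus strand), with a half-site at 77 bases. The Susd3 window is chr13:49248295-49248544 (minus strand), with a half-site at 153 bases. The Ctsd window is chr7:142387828-142388077 (minus strand), with half-sites at 241, 94 and 69 bases.
Greb1: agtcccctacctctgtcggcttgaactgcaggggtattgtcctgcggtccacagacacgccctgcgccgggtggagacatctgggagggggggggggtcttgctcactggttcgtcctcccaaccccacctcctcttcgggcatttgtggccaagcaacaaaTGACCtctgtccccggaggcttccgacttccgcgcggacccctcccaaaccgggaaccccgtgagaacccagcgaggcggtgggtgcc
Nrip1: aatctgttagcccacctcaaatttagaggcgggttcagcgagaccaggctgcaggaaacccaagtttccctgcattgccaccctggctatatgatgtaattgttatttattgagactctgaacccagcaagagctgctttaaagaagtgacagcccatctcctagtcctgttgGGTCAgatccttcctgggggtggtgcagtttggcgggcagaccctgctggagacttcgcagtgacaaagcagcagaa
Susd3: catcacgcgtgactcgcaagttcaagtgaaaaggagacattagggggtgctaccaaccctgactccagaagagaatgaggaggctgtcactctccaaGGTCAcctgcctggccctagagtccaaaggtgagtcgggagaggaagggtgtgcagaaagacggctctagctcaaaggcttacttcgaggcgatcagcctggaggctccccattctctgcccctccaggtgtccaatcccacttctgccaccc
Ctsd: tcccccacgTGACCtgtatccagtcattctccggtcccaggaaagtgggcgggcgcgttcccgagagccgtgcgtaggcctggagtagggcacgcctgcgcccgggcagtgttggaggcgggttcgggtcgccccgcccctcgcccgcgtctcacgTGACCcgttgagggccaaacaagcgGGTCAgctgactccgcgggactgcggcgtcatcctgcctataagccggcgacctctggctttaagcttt
The half-site was present in 5 of the 9 member windows and in 35.2% of 32851 promoter windows of this length, searched on both strands. The windows of Xbp1, Cited2 and Ncoa1 held none, nor did the Nrip1 window that is not shown (chr16:76373050-76373299). The full palindromic estrogen response element, a pair of half-sites facing each other around a short spacer, was in 0 of the 9 and in 0.0639% of all windows. With up to 2 mismatches allowed, it was in 2 of the 9 and in 9.08% of all windows. A match is a run of letters and says nothing of binding, and distal elements lie outside these windows.

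The receptor was examined first, since it checks the labels. Esr1 was at 83.3 and 77.6 TPM in control mice 2 and 3, and at 28.9, 85.0 and 169.9 TPM in mice 1, 2 and 3 labelled Esr1 conditional knockout (cKO). Only cKO mouse 1 lay below the controls, so 2 of the 3 libraries go against their label at the level of the whole gene, and gene-level TPM does not show whether the floxed sequence is missing from the transcripts. All directions below therefore refer to the label and not to Esr1 level. Of the stromal markers, all 8 were detected in every library. Their sum was 20834 and 16963 TPM in controls and 14846, 11489 and 12853 TPM in cKO mice 1, 2 and 3, below both controls in all 3. Of the 8, 3 had a log2 fold change above 0 and 5 below. The matrix genes Lum and Col1a1 had log2 fold changes of -2.01 and -0.96 (limma, adjusted p 0.0978 and 0.245). Those above 0 were Pdgfra (0.13, adjusted p 0.831), Vim (0.09, adjusted p 0.855) and Thy1 (0.52, adjusted p 0.427). Pdgfra was at 225 and 188 TPM in controls and at 298, 231 and 165 TPM in cKO mice 1, 2 and 3. Epithelial markers were detected as well, all 11 in every library. Their sum was 3105 and 3387 TPM in controls and 2193, 12137 and 13247 TPM in cKO mice 1, 2 and 3, most of it from Ovgp1, the oviductal glycoprotein of secretory epithelium. Without Ovgp1 the sum was 832 and 924 TPM in controls and 671, 1482 and 1990 TPM in cKO mice. The 8 immune markers, all above 0 in every library, summed to 2232 and 2778 TPM in controls and to 1815, 1142 and 726 TPM in cKO mice. Most of it came from Lyz2, at 1546 and 2125 TPM in controls and 1163, 738 and 552 TPM in cKO mice 1, 2 and 3. Mouse 1 of the cKO group thus stood apart from mice 2 and 3 in Esr1 and in the epithelial sums, while the immune sums fell from mouse 1 to mouse 3. Each member is given with and without mouse 1. Fits without it compare the controls with mice 2 and 3, whose Esr1 and epithelial sums lay above both controls. In bulk RNA, fewer cells of a type and less RNA per cell cannot be told apart.

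None of the 9 members differed between the groups at an adjusted p under 0.05 over all genes (limma on log2(TPM + 1), Benjamini-Hochberg). The same test called 2 genes higher and 3 lower, 0.0104% and 0.0156% of those tested. At an unadjusted p under 0.05, 1 member was lower (Ctsd) and 0 were higher, against 9.87% and 3.7% of all tested genes. The groups did not overlap for 4 members, Susd3 and Ncoa2 with every cKO library above both controls and Ctsd and Ncoa3 with every cKO library below them, against 11.9% and 21.9% of all tested genes. The median log2 fold change of the 9 was 0.07, with 6 values above 0 and 3 below. Over all tested genes the median was -0.02, with 9221 above 0 and 10071 below. Among genes with a mean TPM of at least 5, which include all 9, the median was 0.10. After quantile normalization the median of the 9 was -0.066, where the median of all genes was 0.02. Without cKO mouse 1 the median of the 9 was 0.18, beside 0.03 over all tested genes. In that fit 1 member, Xbp1, passed the threshold as higher, where 5.35% of 19106 tested genes passed as higher and 2.63% as lower.

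**Figure D1:**
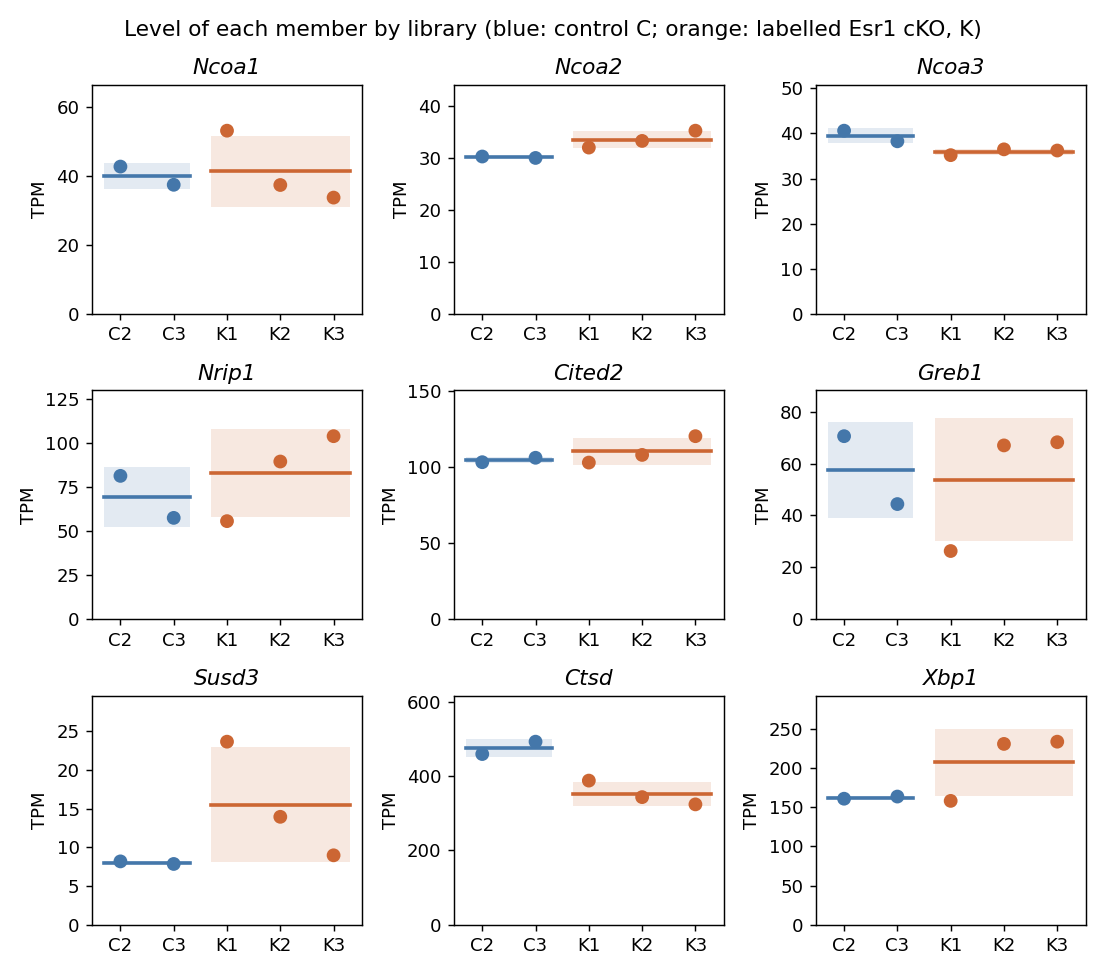
TPM of each of the 9 members (vertical axes, from 0) in the 5 libraries (C2 and C3, controls; K1 to K3, labelled Esr1 cKO). Points are single mice, lines are group means and bands are 1 SD. Ctsd and Ncoa3 lie lower and Susd3 and Ncoa2 higher in all 3 cKO libraries. K1 departs from K2 and K3 in Greb1, Nrip1, Ncoa1, Xbp1 and Susd3, which is highest in K1.

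The members differed widely in level. In order of the control mean on the TPM scale they ran Ctsd, Xbp1, Cited2, Nrip1, Greb1, Ncoa1, Ncoa3, Ncoa2 and Susd3. Ctsd, at 324 to 493 TPM, and Xbp1, at 158 to 234 TPM, had ranges over the 5 libraries that overlapped neither each other nor those of the genes below them. Susd3, at 7.85 to 23.7 TPM, lay below all the others in every library. From Cited2 down to Ncoa2 each gene's range overlapped that of its neighbour. Within libraries, Cited2 was nevertheless above Nrip1, Nrip1 above Greb1 and Ncoa3 above Ncoa2 in 5 of 5, whereas Greb1 exceeded Ncoa1 in 4 of 5 and Ncoa1 exceeded Ncoa3 in 3 of 5.

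Of the p160 coactivators Ncoa1, Ncoa2 and Ncoa3 (also known as SRC-1, SRC-2 and SRC-3), Ncoa2 and Ncoa3 had narrow ranges over the 5 libraries and Ncoa1 a wider one. Ncoa3, the family member known as amplified in breast cancer, was at 40.6 and 38.3 TPM in controls and at 35.2, 36.5 and 36.2 TPM in cKO mice 1, 2 and 3. All 3 cKO values lay below both controls, but the gap was small: the log2 fold change was -0.13 ± 0.15 (standard error; limma, adjusted p 0.698), and -0.11 without mouse 1. Ncoa2 was at 30.3 and 30.0 TPM in controls and at 32.0, 33.3 and 35.3 TPM in cKO mice, all above both controls. Its log2 fold change was 0.15 ± 0.16 (limma, adjusted p 0.666), and 0.18 without mouse 1. The 95% intervals run from 0.71-fold to 1.18-fold for Ncoa3 and from 0.86-fold to 1.43-fold for Ncoa2, on the TPM + 1 scale.

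Ncoa1, the first p160 coactivator to be described, varied more. It was at 42.6 and 37.4 TPM in controls and at 53.1, 37.3 and 33.6 TPM in cKO mice 1, 2 and 3, so that mouse 1 was the highest of the 5 libraries and mouse 3 the lowest. The log2 fold change was 0.02 ± 0.23 (limma, adjusted p 0.967), -0.17 without mouse 1 and -0.085 after quantile normalization. The highest library exceeded the lowest 1.58-fold for Ncoa1, 1.18-fold for Ncoa2 and 1.15-fold for Ncoa3, beside a median of 1.56-fold over the 12606 genes with a mean TPM of at least 5. Of those genes, 95.8% had a larger ratio than Ncoa2 and 97.4% a larger ratio than Ncoa3.

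The 3 coactivators bind the same surface of the receptor, so their proportions were also compared within each library, where scaling cancels. Their summed level was 114 and 106 TPM in controls and 120, 107 and 105 TPM in cKO mice. Ncoa1 made up 37.5% and 35.4% of it in controls and 44.1%, 34.8% and 32.0% in cKO mice 1, 2 and 3. Ncoa2 made up 26.7% and 28.4% in controls and 26.6%, 31.1% and 33.6% in cKO mice. Ncoa3 made up 35.8% and 36.2% in controls and 29.3%, 34.1% and 34.4% in cKO mice, below both controls in all 3. The mean differences, cKO minus control, were 0.53, 2.88 and -3.41 percentage points for Ncoa1, Ncoa2 and Ncoa3, with exact two-sided permutation p of 1, 0.4 and 0.3. Over the 10 possible assignments of the libraries the smallest p is 0.1, so no threshold of 0.05 can be reached. The 3 shares and the ratio of Greb1 to Esr1 given below form a family of 4, in which the adjusted p were 1, 0.8 and 0.8 for the shares and 1 for the ratio. Without cKO mouse 1 the differences were -3.04, 4.78 and -1.74 percentage points for Ncoa1, Ncoa2 and Ncoa3, and without cKO mouse 3 they were 3.02, 1.32 and -4.33. The Ncoa1 difference was 1.60 without cKO mouse 2, 1.62 without control mouse 2 and -0.57 without control mouse 3.

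**Figure D2:**
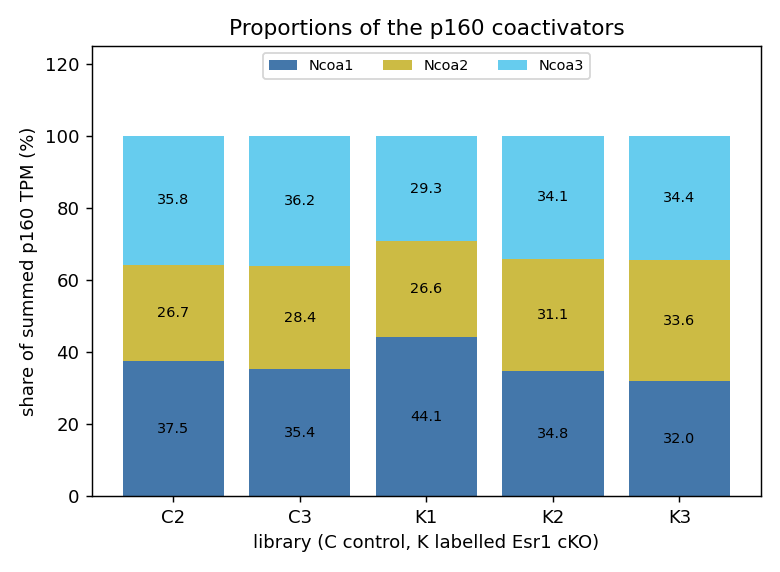
Share of Ncoa1, Ncoa2 and Ncoa3 in their summed TPM (percent, stacked bars with values) in each library (C, control; K, labelled Esr1 cKO). The share of Ncoa1 is highest in K1, at 44.1%, and lowest in K3, at 32.0%.

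Nrip1 encodes RIP140, a ligand-dependent corepressor that is itself an estrogen target. It was at 81.5 and 57.6 TPM in controls and at 55.7, 89.6 and 104 TPM in cKO mice 1, 2 and 3. Mouse 1 was the lowest of the 5 libraries and mice 2 and 3 were the highest, so the groups overlapped. The log2 fold change was 0.23 ± 0.30 (limma, adjusted p 0.726), 0.49 without mouse 1 (adjusted p 0.154) and -0.02 without control mouse 3. Cited2, which competes for a domain of the acetyltransferases CBP and p300 and acts as a coregulator of several transcription factors, was level throughout. It was at 103 and 106 TPM in controls and at 103, 108 and 120.5 TPM in cKO mice, with a log2 fold change of 0.07 ± 0.16 (limma, adjusted p 0.834), 0.12 without mouse 1 and -0.066 after quantile normalization. Its 95% interval ran from 0.82-fold to 1.36-fold.

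Greb1 encodes a chromatin-bound cofactor of the receptor and is among the most used readouts of estrogen action. It was at 70.6 and 44.4 TPM in controls and at 26.3, 67.0 and 68.3 TPM in cKO mice 1, 2 and 3. Mouse 1, the library with the lowest Esr1, also had the lowest Greb1, while mice 2 and 3 lay between the controls. The control mean was 57.5 ± 18.5 TPM (SD, n = 2), and that of the cKO libraries was 53.9 ± 23.9 TPM (SD, n = 3). The log2 fold change of -0.18 ± 0.44 (limma, adjusted p 0.862; 95% interval 0.43-fold to 1.82-fold) was 0.27 without cKO mouse 1 and 0.15 without control mouse 2.

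Relative to the control mean, Esr1 stood at 0.36, 1.06 and 2.11 in cKO mice 1, 2 and 3, Greb1 at 0.46, 1.17 and 1.19, and Nrip1 at 0.80, 1.29 and 1.496. The 3 genes thus had the same order over the cKO mice, in a span that was widest for Esr1. Xbp1 (0.97, 1.42 and 1.44), Cited2 (0.98, 1.03 and 1.15) and Ncoa2 (1.06, 1.10 and 1.17) had this order too. Susd3, Ctsd and Ncoa1 had the reverse order, and Ncoa3 had neither. The TPM ratio of Greb1 to Esr1 was 0.85 and 0.57 in controls and 0.91, 0.79 and 0.40 in cKO mice. Its mean log2 value differed between the groups by -0.08 (exact permutation p 0.9, two-sided), and by 0.28 without cKO mouse 3 and 0.21 without control mouse 2. The sum of epithelial markers relative to the control mean was 0.68, 3.74 and 4.08 in cKO mice 1, 2 and 3. Its part in the levels of Esr1, Greb1 and Nrip1 was not tested.

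**Figure D3:**
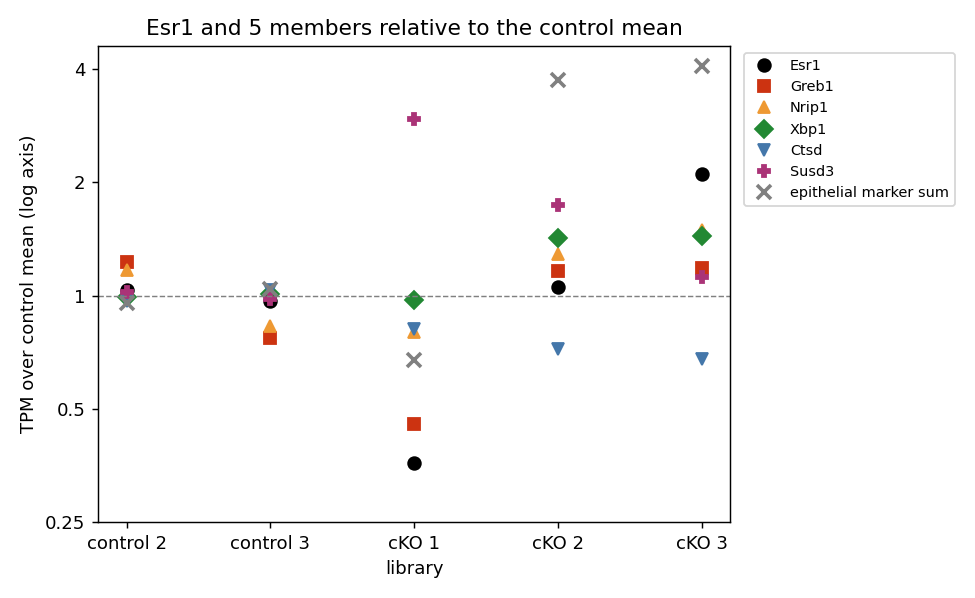
TPM of Esr1, Greb1, Nrip1, Xbp1, Ctsd, Susd3 and the summed epithelial markers in each library, divided by the control mean (log axis, dashed line at 1). Esr1, Greb1 and Nrip1 lie under 1 in cKO mouse 1 and above 1 in cKO mice 2 and 3, Ctsd lies under 1 in all 3 and Susd3 above 1 in all 3.

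Susd3, a cell-surface sushi-domain protein known from breast cancer cells as an estrogen-responsive gene, had the widest relative range of the members. It was at 8.18 and 7.85 TPM in controls and at 23.7, 13.9 and 8.97 TPM in cKO mice 1, 2 and 3. All 3 cKO values exceeded both controls, from 2.95 times the control mean in mouse 1 to 1.12 times in mouse 3. The difference of 0.78 ± 0.37 on the log2 scale missed the threshold (limma, adjusted p 0.402) and was 0.44 without mouse 1 (adjusted p 0.283). Among 12119 other named genes with a mean TPM of at least 5, the closest profiles over the 5 libraries, by the root-mean-square difference of centred log2(TPM + 1), were Papss2 (0.105), Asl (0.107) and Prrg3 (0.108). Papss2, which makes the sulfate donor for sulfation, was at 31.4 and 31.2 TPM in controls and at 73.6, 45.0 and 31.8 TPM in cKO mice.

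Ctsd encodes cathepsin D, a lysosomal aspartic protease and an early known estrogen-induced gene of breast cancer cells. It was at 459 and 493 TPM in controls and at 388, 343 and 324 TPM in cKO mice 1, 2 and 3. Every cKO library lay below both controls, at 0.81, 0.72 and 0.68 of their mean. The log2 fold change was -0.44 ± 0.17, with an unadjusted p of 0.0404 and an adjusted p of 0.352 (limma). The exact permutation p was 0.1, the smallest that 5 libraries allow. Without cKO mouse 1 the log2 fold change was -0.51 (limma, adjusted p 0.0602), and it stayed between -0.51 and -0.38 when each library was left out in turn. Ctsd is also abundant in macrophages. The immune marker sum, most of it from Lyz2, stood at 0.72, 0.46 and 0.29 of the control mean in cKO mice 1, 2 and 3. Of the 8 markers, 6, 7 and 8 lay below both controls and 2, 1 and 0 above both. In mouse 1 those above were Cd3e and Cd52. The part of immune RNA in the Ctsd values was not tested.

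Other lysosomal genes were compared with Ctsd. Of 14 on the list, 0 passed the threshold (limma) and 0 had an unadjusted p under 0.05. Their median log2 fold change was -0.17 (-0.10 without cKO mouse 3), with 11 below 0, beside 10071 of 19292 tested genes. In all cKO libraries 3 lay below both controls while 0 lay above, beside 21.9% and 11.9% of all tested genes. The count of lower genes was thus near the background. Those 3 were Ctss, a cysteine protease of antigen-presenting cells (log2 fold change -0.85, adjusted p 0.441), Hexa, a hexosaminidase subunit (-0.32, adjusted p 0.467), and Ctsa, a serine carboxypeptidase (-0.13, adjusted p 0.693).

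Xbp1 encodes a transcription factor of the unfolded protein response that is needed in secretory cells and is an estrogen target in breast cancer cells. It was at 161 and 164 TPM in controls and at 158, 231 and 234 TPM in cKO mice 1, 2 and 3. The controls differed by 1.02-fold, mouse 1 was just below them, and mice 2 and 3 stood at 1.42 and 1.44 times their mean. The log2 fold change over all libraries was 0.33 ± 0.22 (limma, adjusted p 0.507). Without cKO mouse 1 it was 0.52 ± 0.11 and passed the threshold (limma, adjusted p 0.0451). The same 2 libraries had the high epithelial marker sums given above, with 10 of 11 markers above both controls in each, while mouse 1 had 0 above and 7 below. The part of epithelial RNA in the Xbp1 values was not tested.

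Genes of the unfolded protein response around Xbp1 had a median log2 fold change of 0.22, with 10 of 13 above 0, beside 9221 of 19292 tested genes. Among genes with a mean TPM of at least 5, which include all 13, the median was 0.10. The median of the list was 0.088 without cKO mouse 2, 0.11 without cKO mouse 3, 0.33 without control mouse 3 and 0.10 after quantile normalization. None passed the threshold over all 5 libraries (limma). At an unadjusted p under 0.05 there were 2, both higher, beside 3.7% of all tested genes higher and 9.87% lower. Those were Pdia4, a protein disulfide isomerase of the endoplasmic reticulum, and Dnajc3, a co-chaperone. Pdia4 was at 175 and 188 TPM in controls and at 197, 377 and 395 TPM in cKO mice 1, 2 and 3 (log2 fold change 0.76, adjusted p 0.363). Dnajc3 was at 68.5 and 72.3 TPM in controls and at 79.1, 105.7 and 112.6 TPM in cKO mice (0.47, adjusted p 0.366). As for Xbp1, mouse 1 was close to the controls and mice 2 and 3 were higher. The groups did not overlap for 3 higher genes and 1 lower gene of the 13, beside 11.9% and 21.9% of all tested genes. Herpud1, a component of endoplasmic-reticulum-associated degradation, was above both controls in all 3 cKO libraries (0.24, adjusted p 0.504). Atf4, a transcription factor of the integrated stress response, was below both in all 3 (-0.25, adjusted p 0.536). Without mouse 1, 4 of the 13 passed as higher and 0 as lower, in a fit where 5.35% and 2.63% of all tested genes did. Mice 2 and 3 are also the libraries with the high epithelial marker sums, whose part in these values was not tested.

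**Figure D4:**
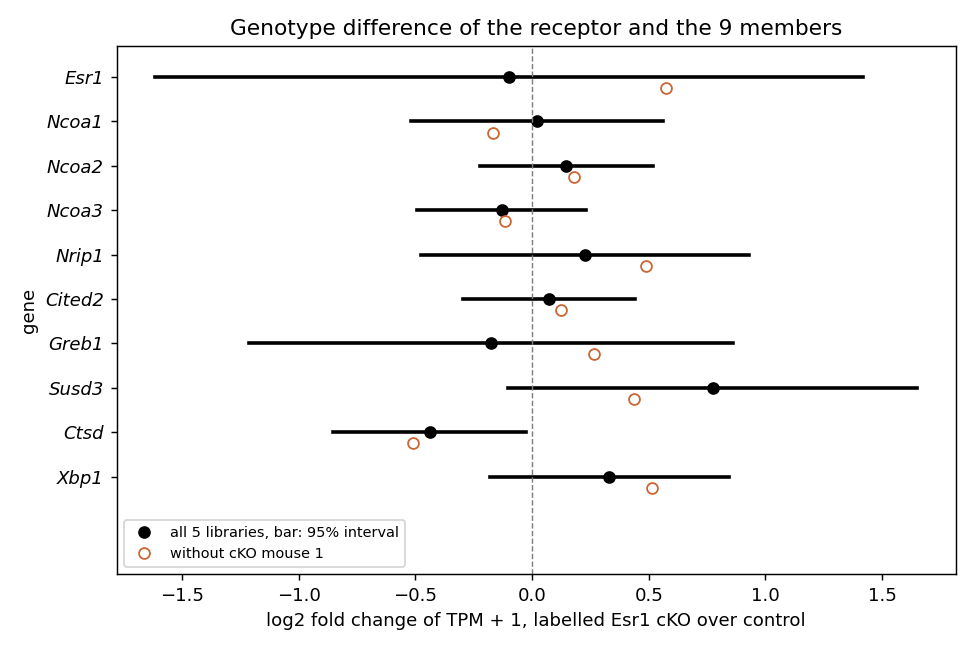
Log2 fold change of TPM + 1, labelled Esr1 cKO over control, for Esr1 and the 9 members. Filled points are the fit to all 5 libraries with its 95% interval and open points the fit without cKO mouse 1; the interval leaves out 0 for Ctsd alone, before adjustment, and Greb1, Ncoa1 and Esr1 change sign without mouse 1.

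In the wider coregulator machinery no gene passed the threshold over all 5 libraries. Histone-modifying and Mediator partners of the p160 coactivators had a median log2 fold change of 0.05 over 6 genes, other coactivators 0.02 over 15 and corepressors 0.10 over 15 (limma). After quantile normalization these medians were -0.085, -0.060 and -0.010, and over the fits that left out 1 library they ran from -0.039 to 0.15, from -0.024 to 0.087 and from -0.0079 to 0.18. At an unadjusted p under 0.05 there were 0, 0 and 1 genes, the last a higher one, beside 3.7% of all tested genes higher and 9.87% lower. That gene was the corepressor Nr0b1, at 1.03 and 1.81 TPM in controls and at 2.13, 3.57 and 5.42 TPM in cKO mice. Its log2 fold change was 0.92 (limma, adjusted p 0.354). The groups did not overlap for 2 higher genes in each list and for 0, 1 and 0 lower genes. The shares of all tested genes were 11.9% and 21.9%. Kat2b, the acetyltransferase PCAF, was at 40.3 and 36.1 TPM in controls and at 50.8, 45.4 and 41.9 TPM in cKO mice 1, 2 and 3 (log2 fold change 0.26, adjusted p 0.503). Ep300, which encodes the acetyltransferase p300, was above both controls in all 3 by a small margin (0.09, adjusted p 0.778). Among other coactivators, Ncoa7 (0.44, adjusted p 0.425) and the splicing-linked Rbm39 (0.18, adjusted p 0.591) lay above both controls in all 3, and Ncoa4, also a ferritin receptor in autophagy, lay below (-0.15, adjusted p 0.653). The corepressor Hdac2, a histone deacetylase, was at 76.4 and 73.8 TPM in controls and at 79.9, 107.6 and 108.0 TPM in cKO mice. Its log2 fold change was 0.37 (limma, adjusted p 0.424), and 0.52 without mouse 1, where it passed (adjusted p 0.0449). In that fit 1 of the 15 corepressors passed as higher, beside 5.35% of all tested genes.

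Transcription factors that work beside the receptor had a median log2 fold change of -0.31 over 11 tested genes. Of these 4 were above 0 and 7 below, beside 9221 and 10071 of 19292 tested genes. The median was 0.01 among those of the list with a mean TPM of at least 5. For the whole list it was -0.19 without cKO mouse 2, -0.051 without cKO mouse 3, and -0.14 after quantile normalization. Foxa1, the pioneer factor of the receptor in breast epithelium, was under the filter on low values. Nr2f2, which encodes COUP-TFII, a nuclear receptor of mesenchymal cells, was at 92.0 and 101.3 TPM in controls and at 156, 162 and 143 TPM in cKO mice 1, 2 and 3. All 3 cKO values exceeded both controls by a similar amount, yet the log2 fold change of 0.66 ± 0.16 did not pass over all genes (limma, unadjusted p 0.00393, adjusted p 0.197). Without mouse 1 it was 0.65 and passed (adjusted p 0.0374). In that fit 1 of the 11 genes passed as higher, beside 5.35% of all tested genes. Sp1, a factor through which the receptor is tethered to GC-rich promoters, lay above both controls in all 3 (0.29, adjusted p 0.449). The groups did not overlap for 2 higher genes and 1 lower gene of the 11, beside 11.9% and 21.9% of all tested genes.

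Other estrogen targets, a list of 30 of which 29 were tested, had a median log2 fold change of -0.29. It was -0.09 without cKO mouse 1 and -0.44 without cKO mouse 2. Of the 29, 11 were above 0 and 18 below, beside 9221 and 10071 of 19292 tested genes. None passed the threshold over all genes (limma), and 1 was higher and 6 were lower at an unadjusted p under 0.05. The shares of all tested genes were 3.7% and 9.87%. The groups did not overlap for 2 higher and 9 lower genes of the 29, beside 11.9% and 21.9% of all tested genes. Several members of this list are also epithelial genes, and Krt19 stands in the epithelial list as well. Lif, the cytokine of uterine receptivity, was at 10.2 and 8.21 TPM in controls and at 4.27, 3.59 and 2.06 TPM in cKO mice 1, 2 and 3 (log2 fold change -1.28 ± 0.30, adjusted p 0.197). Efemp1, a fibulin of the extracellular matrix, was at 779 and 730 TPM in controls and at 672, 441 and 299 TPM in cKO mice (-0.76 ± 0.33, adjusted p 0.380). Ramp3, a receptor activity-modifying protein, had the lowest log2 fold change of the list, -2.34 (adjusted p 0.130). It was at 22.5 and 12.8 TPM in controls and at 1.72, 1.95 and 4.63 TPM in cKO mice. Pgr, the progesterone receptor gene, had the next lowest, -2.10 (limma, adjusted p 0.374), and its groups overlapped. Pgr was at 103.9 and 29.5 TPM in controls and at 2.90, 18.0 and 30.2 TPM in cKO mice, so the controls themselves lay far apart. In the other direction, Ccnd1, the G1 cyclin D1, was at 42.8 and 46.7 TPM in controls and at 50.3, 73.3 and 76.7 TPM in cKO mice (0.55 ± 0.22, adjusted p 0.355), and Bcl2, an inhibitor of apoptosis, was above both controls in all 3 (0.24, adjusted p 0.541). Without mouse 1, 2 genes of the list passed as higher and 5 as lower, in a fit where 5.35% and 2.63% of all tested genes did.

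**Figure D5:**
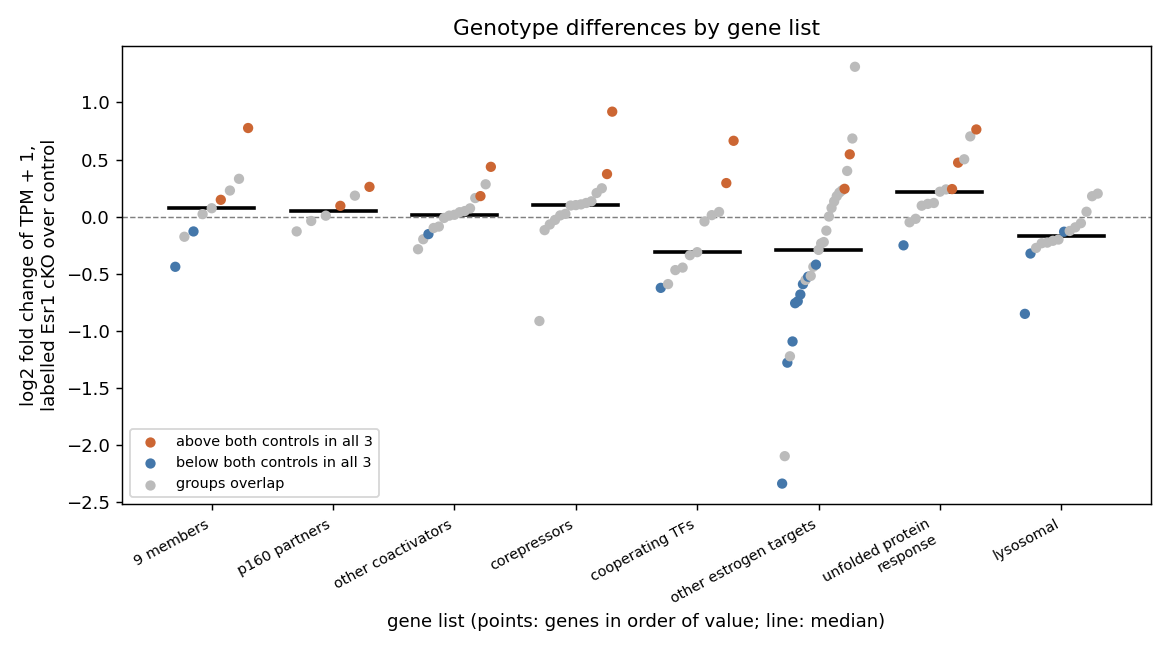
Log2 fold change of TPM + 1, labelled Esr1 cKO over control (vertical axis), for the members and 7 lists of related genes. Points are genes coloured by whether all 3 cKO libraries lie above or below both controls, and black lines are medians, from -0.31 for cooperating transcription factors to 0.22 for the unfolded protein response.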

How the data were processed

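Expression was measured in 5 sorted-cell libraries, 2 control and 3 Esr1 cKO, grouped by their titles. Per the labels' protocols, libraries came from total RNA of the sorted cells, with a low-input SMARTer kit. The authors deposited TPM per gene, summing to 1000000 in each library, in a table whose name mentions STAR. The build is mm10 per the submitters' processing notes, and the counter, the annotation and the versions are not given in the sources used here. TPM keeps no total depth, so no counting interval is given.

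The test was limma 3.58.1 (R 4.3.3) on log2(TPM + 1), two-sided, with a genotype term and a trended eBayes step. Tested genes had 2 or more libraries at a TPM of 1 or higher, and the Benjamini-Hochberg adjustment ran over all of them. Fold changes on this scale understate those of low genes. Single values also had exact permutation tests. The fit was also run on simulated data with independent noise for each gene and no library-wide shift. That run does not cover shifts such as those in the epithelial and immune sums. Python 3.11.15 with pandas 2.3.3 made the summaries. Each library is 1 mouse per its title, so p-values reflect the spread between these mice.

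The members and lists were chosen with earlier results of these data known. Named beside the members were, per list, genes past the threshold and up to 3 in each direction with the largest fold change, a mean TPM of at least 5 and no overlap between the groups. The rule was not followed for the cell type markers, where Col1a2, Cd68 and Adgre1 met it and are not described. Genes such as Pdgfra, Vim, Thy1, Cd3e, Cd52, Pgr and Nr0b1 were named outside this rule. For the member with the widest range, the 3 most similar genes were named. A planned ratio of corepressors to coactivators is not reported here. Car12 was used for the listed symbol Ca12.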

Additional observations from a re-analysis of the deposited data

How the results depend on the processing

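No member passed the threshold in the fit to all 5 libraries, and the count of lower members was 0 in every alternative. The count of higher members was 1 (Xbp1) with the mouse number as a replicate block and ranged from 0 to 1 when each library was left out, with the 1 coming without cKO mouse 1. The block rests on mice 2 and 3 alone, since mouse 1 has no partner. Same-numbered libraries had deviations from their group means that correlated at -0.06 (mouse 2) and -0.07 (mouse 3). With 2 controls, their deviations are mirror images of each other. These values therefore cannot decide whether same-numbered libraries share more than a number. With the block Xbp1 had a log2 fold change of 0.52 (limma, adjusted p 0.0489), Esr1 0.57, Greb1 0.27 and Ncoa1 -0.17, the median of the 9 members was 0.18, and 1165 genes were higher and 693 lower. List counts with the block equalled those without cKO mouse 1, apart from 1 lower lysosomal gene. Ctsd, Susd3, Ncoa2, Ncoa3 and Xbp1 kept their direction in all 15 alternatives each.

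Rpph1 alone made up 18.6% and 21.3% of TPM in controls and 22.3%, 14.3% and 13.1% in cKO mice 1, 2 and 3. With Rpph1 and Rn45s left out, the median of the members was 0.014, beside -0.092 over all tested genes. The median of the members was -0.066 with quantile normalization and ranged from -0.018 to 0.18 over the fits that left out 1 library. Leaving out a control leaves a single one, which is then assumed to vary like the cKO mice. Reversed values were, for Esr1, 0.15 with array weights and 0.57 without cKO mouse 1, in a range from -0.68 to 0.57 over the left-out libraries. For Greb1 they were 0.11 with array weights, 0.15 without control mouse 2 and 0.27 without cKO mouse 1, in a range from -0.50 to 0.27. For Nrip1 the value was -0.018 without control mouse 3, in a range from -0.018 to 0.49, and for Cited2 -0.066 with quantile normalization. For Ncoa1 they were -0.085 with quantile normalization, -0.037 with Rpph1 and Rn45s left out, -0.074 with array weights, -0.071 without control mouse 3 and -0.17 without cKO mouse 1, in a range from -0.17 to 0.15. Leaving out 1 library gave Ncoa1 shares differing by -3.04 to 3.02 percentage points and log2 Greb1 to Esr1 ratios by -0.36 to 0.28. The cause was not tested.

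Over all genes, 2 higher and 3 lower passed. A pseudocount of 0.1 gave 0 of each, with 715 higher and 1518 lower at an unadjusted p under 0.05, and a minimum mean TPM of 5 gave 0 of each, with 643 and 746. Robust eBayes, or no filter on low values, gave 1 higher gene. Median-of-ratios scaling, quantile normalization and eBayes without trend gave 0 higher genes, with 1289, 1195 and 555 at an unadjusted p under 0.05. With Rpph1 and Rn45s left out 5 were lower. Array weights gave 260 and 396, and a threshold of 0.1 gave 14 and 22. Leaving out 1 library gave 0 to 1022 higher and 0 to 502 lower, the top values without cKO mouse 1. The number of mice, 2 against 3, limits what differences can be called.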
